A study of Mus musculus with 18 samples.

Results

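Interferon transcription factors and RNA sensors are represented here by 8 genes of 19057 with a probe. The genes were listed with earlier results of these data known. Their probes were taken by annotation alone: every probe of the non-normalised table annotated to Stat2, Irf9, Irf7, Irf1, Irf3, Dhx58, Ifih1 or Tlr3, which came to 18 probes. Of these probes, 15 were detected on at least 3 of the 18 arrays and were kept, and they covered 6 of the 8 genes. Ifih1 and Tlr3 had no kept probe. All 8 are described on each array, and each is set against Usp18, an interferon-induced protease that removes the ubiquitin-like protein ISG15 and lowers signalling from the interferon receptor. The question of which of them follow Usp18 was asked because Usp18 differed widely between arrays.

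The cells were skeletal muscle myoblasts of mice of the strain Gata4tm1.1Sad/J, whose Gata4 gene is flanked by loxP sites in all groups. In the KO groups they had been infected with an adenovirus carrying Cre recombinase, in the OE groups with a retrovirus carrying mouse GATA4, and in the Wt groups with an adenovirus carrying nuclear β-galactosidase. Day 3 is 3 days in differentiation medium (DMEM with FBS) and day 0 is growth medium (Ham's F10 with FBS and bFGF). Each of the 6 groups had 3 arrays, and no uninfected cells are among them. The effect of GATA4 in OE against Wt cannot be told apart from that of the kind of virus. Nothing in the labels tells whether the replicates are separate cultures or animals. The p-values therefore cover only the spread between these samples, which may be technical.

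In type I interferon signalling, the receptor activates the kinases JAK1 and TYK2, which phosphorylate STAT2. STAT2 and IRF9 are subunits of the complex ISGF3, which binds the interferon-stimulated response element (ISRE) of its target genes, Usp18 and Irf7 among them. IRF3 is present in resting cells and is activated by phosphorylation after RNA is sensed, IRF7 is induced by interferon and amplifies interferon production, and IRF1 is induced by interferon-γ through a gamma-activated sequence (GAS). Ifih1 encodes MDA5, a sensor of long cytosolic RNA, Dhx58 encodes LGP2, its regulator without signalling domains of its own, and Tlr3 is the endosomal receptor of RNA duplexes.

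Promoter sequences are shown for Stat2 and Irf7, whose levels followed Usp18, and for Irf1, whose level did not. Each is shown for a different one of the motifs searched, and the ISRE match of Stat2 also holds the shorter form shown for Irf7. RefSeq promoters (GRCm38.p6, from 250 bases before to 50 bases after the start site, on the strand of the gene) matched 7 of the 8 members and gave 9 sequences. The motifs were the ISRE letters GAAANNGAAA, a shorter form GAAANNGA that overlaps every ISRE match, and the GAS letters TTCNNNGAA, each on both strands. Capitals mark the matches: the ISRE in Stat2, the shorter form in Irf7 and the GAS in Irf1.
Stat2 (chr10:128270248-128270547, plus strand): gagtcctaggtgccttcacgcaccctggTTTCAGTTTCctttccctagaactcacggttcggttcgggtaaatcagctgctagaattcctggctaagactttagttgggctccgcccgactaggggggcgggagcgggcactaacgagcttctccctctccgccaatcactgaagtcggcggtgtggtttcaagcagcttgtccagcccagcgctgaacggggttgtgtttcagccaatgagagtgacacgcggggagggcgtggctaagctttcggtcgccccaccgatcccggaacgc
Irf7 (chr7:141266375-141266674, minus strand): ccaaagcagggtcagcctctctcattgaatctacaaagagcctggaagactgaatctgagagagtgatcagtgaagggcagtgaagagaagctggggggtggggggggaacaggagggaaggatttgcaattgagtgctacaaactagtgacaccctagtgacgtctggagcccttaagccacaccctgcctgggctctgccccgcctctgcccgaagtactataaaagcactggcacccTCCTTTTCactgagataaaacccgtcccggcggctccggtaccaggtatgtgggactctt
Irf1, the upstream of its 2 starts (chr11:53769764-53770063, plus strand): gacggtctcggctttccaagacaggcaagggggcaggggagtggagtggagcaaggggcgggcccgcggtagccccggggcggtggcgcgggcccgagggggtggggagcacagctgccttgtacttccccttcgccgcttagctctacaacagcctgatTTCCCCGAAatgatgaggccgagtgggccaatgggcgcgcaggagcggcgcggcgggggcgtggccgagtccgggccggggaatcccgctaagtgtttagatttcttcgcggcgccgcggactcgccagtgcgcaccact

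The Stat2 match begins 222 bases before the start site, the Irf7 match 10 bases before and the Irf1 match 90 bases before. Among the other members, Ifih1 (chr2:62646206-62646505, minus strand) held an ISRE match 32 bases after its start and 4 matches of the shorter form. Neither promoter of Irf9, the downstream promoter of Irf1, nor those of Irf3 and Tlr3 held any of the 3 motifs in this window. Of 32851 RefSeq promoters of the same length, 3.44% held the ISRE letters, 20.95% the shorter form and 8.3% the GAS letters. A match is a run of letters and was not examined for binding.

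Each array detected 16974 to 19966 of the 45281 probes, with a median signal of 96.6 to 110.4 intensity units. Gata4 itself, read by 1 probe, was detected on 5 of 18 arrays at 91.9 to 116.3 intensity units, so that it does not check the labels. The arrays did not group by label, and whether each label matches its array was not tested. Differences between labelled groups below are those of the labels as given. For 7 of 18 arrays the most similar array carried the same label, and the median correlation over genes was 0.941 within and 0.938 between labelled groups. Ckm, the muscle creatine kinase of differentiated fibres, was at 10.86 or more on 9 arrays, 6 from day 3 and 3 from day 0, and at 8.04 or less on the other 9. The day 0 arrays with high Ckm were replicate 1 of Wt and KO and replicate 2 of OE. The day 3 arrays with low Ckm were Wt replicate 2 and OE replicates 2 and 3. All levels are log2 intensities after background correction and quantile normalisation, where the lowest value of any probe was 4.13. Of 7 muscle cell markers 6 were kept, with array means of 9.73 to 11.13; Pax7 was not kept. Of 9 leukocyte markers with a probe 4 were kept, with array means of 4.44 to 5.04. Csf1r (4.27 to 5.54) and Cd14 (4.26 to 5.70) were each detected on up to 10 arrays by a probe, Aif1 on 8 and Lyz2 on 3. Ptprc, Tyrobp and Fcer1g were detected on no array. Of 3 plasmacytoid dendritic cell markers 2 were kept, Siglech at 4.29 to 4.94 and Tcf4 at 10.41 to 11.52, and Ccr9 was detected on no array. Of 4 endothelial markers with a probe 3 were kept, and Tek ranged from 4.58 to 7.47 while Pecam1 and Kdr stayed at 5.21 or less. All 4 fibroblast and progenitor markers with a probe were kept. Thy1 ranged from 6.23 to 9.62, Cd34 from 4.38 to 7.74, Col1a1 from 4.73 to 7.45 and Pdgfra from 4.61 to 5.85.

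Usp18 fell into 3 levels that crossed the labels. It was at 5.37, 5.25 and 5.07 in KO day 3 replicates 1 to 3, at 5.11, 4.77 and 5.30 in OE day 3 and at 9.76, 12.50 and 5.22 in Wt day 3. At day 0 it was at 4.48, 12.39 and 12.39 in KO, at 4.54, 9.71 and 4.27 in OE and at 9.92, 5.42 and 4.95 in Wt. The widest gap between neighbouring arrays was 4.29, and 6 arrays from 4 labelled groups lay above it. The 3 arrays above 12 were Wt day 3 replicate 2 and KO day 0 replicates 2 and 3, and the next 3 were OE day 0 replicate 2 and replicate 1 of Wt at both days. The 3 highest arrays had Ckm at 7.85 to 8.04 and Top2a, a gene of dividing cells, at 8.14 to 8.57, whereas the next 3 had Ckm at 11.10 to 11.19 and Top2a at 5.13 to 5.56. These next 3 arrays also had Col1a1 at 6.9 to 7.45, against at most 6.79 on the 12 arrays below the gap. Tek (6.88 to 7.39) and Cd34 (6.87 to 7.74) were high on them too, but reached 7.47 and 7.5 below the gap. The leukocyte marker Cd14 was at 5.30 to 5.42 on the 3 highest arrays, at 4.26 to 4.79 on the next 3 and at 4.31 to 5.70 below the gap. The part of these differences in the results below was not tested. In these bulk cultures, more cells with a response and more RNA per responding cell cannot be told apart. A member is said to follow Usp18 where each of the 6 arrays above the gap was higher than each of the 12 below it. No average was made over arrays chosen by Usp18, and no test set arrays above the gap against those below it.

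By this rule 3 of the 6 kept members followed Usp18: Stat2, Irf9 and Irf7. Of all 11921 genes tested, Usp18 included, 0.411% met the same rule. The members and the gene lists below were chosen with earlier results of these data known, so this share is a description and no test. Dhx58 and Irf1 were high on the 3 arrays with the highest Usp18 but did not separate the next 3 from the rest, and Irf3 stayed within 0.75 over all arrays.

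**Figure D1:**
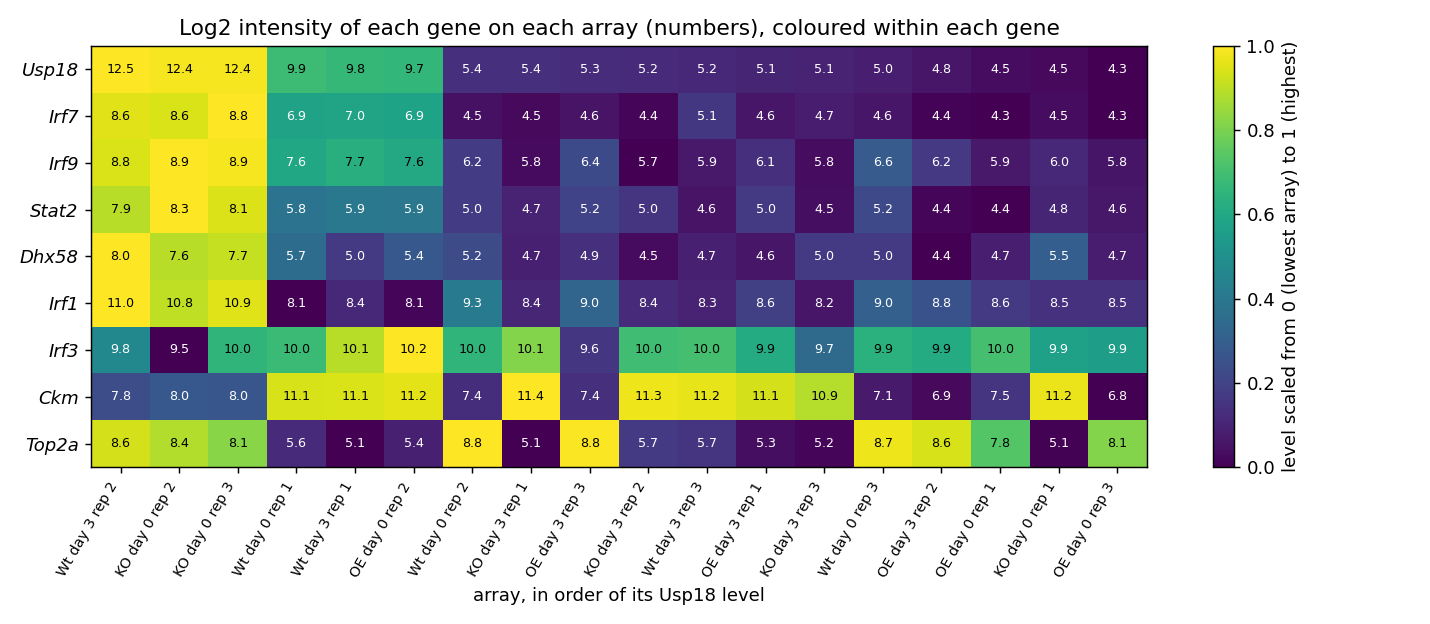
Log2 intensity (numbers) of Usp18, 6 members, Ckm and Top2a on each of the 18 arrays, ordered from left to right by Usp18, with colour scaled from the lowest to the highest array of each gene. Irf7, Irf9 and Stat2 stepped down with Usp18 after the third and the sixth array, while Irf1 was at 8.06 to 8.39 on the arrays in places 4 to 6 and at up to 9.28 further right.

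Stat2, the STAT that occurs only in complexes such as ISGF3, was read by 1 probe (ILMN_2657822) and detected on 13 arrays. It was at 4.74, 4.95 and 4.50 in KO day 3, at 5.03, 4.43 and 5.15 in OE day 3 and at 5.94, 7.87 and 4.57 in Wt day 3. At day 0 it was at 4.77, 8.29 and 8.08 in KO, at 4.36, 5.92 and 4.62 in OE and at 5.85, 5.05 and 5.23 in Wt. The 3 arrays with the highest Usp18 gave 7.87 to 8.29, the next 3 gave 5.85 to 5.94, and the 12 others gave 4.36 to 5.23. The labelled groups overlapped in all 7 comparisons of 2 groups.

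Irf9, the DNA-binding subunit of ISGF3, was detected on all 18 arrays by the probe that represents it (ILMN_1233461). Its level was 5.75, 5.65 and 5.76 in KO day 3, 6.09, 6.19 and 6.39 in OE day 3 and 7.73, 8.75 and 5.87 in Wt day 3. In the day 0 groups the level was 6.01, 8.94 and 8.90 in KO, 5.87, 7.64 and 5.83 in OE and 7.61, 6.22 and 6.59 in Wt. Every KO day 3 array lay under every Wt day 3 array and under every KO day 0 array, the narrowest gap being that to Wt day 3 replicate 3. The second Irf9 probe also followed Usp18, with 7.29 to 7.67 on the 3 highest arrays, 6.31 to 6.46 on the next 3 and at most 5.27 below the gap. On this second probe KO day 3 (4.71, 4.71 and 4.53) overlapped both groups, with Wt day 3 replicate 3 at 4.47 and KO day 0 replicate 1 at 4.53.

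Irf7, the interferon-induced factor that drives interferon-α genes, was read by 1 probe (ILMN_1227573) and was near background on most arrays. In KO day 3 it was not detected on any array (4.46, 4.40 and 4.68), and likewise in OE day 3 (4.62, 4.38 and 4.57), whereas Wt day 3 gave 6.97, 8.63 and 5.06. At day 0 it was at 4.49, 8.57 and 8.83 in KO, at 4.34, 6.94 and 4.34 in OE and at 6.92, 4.55 and 4.62 in Wt. Detection on 7 arrays comprised the 6 above the gap and Wt day 3 replicate 3. The 3 arrays with the highest Usp18 lay between 8.57 and 8.83 and the next 3 between 6.92 and 6.97. Of the 6 kept members, Irf7 was the nearest to Usp18 in shape.

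**Figure D2:**
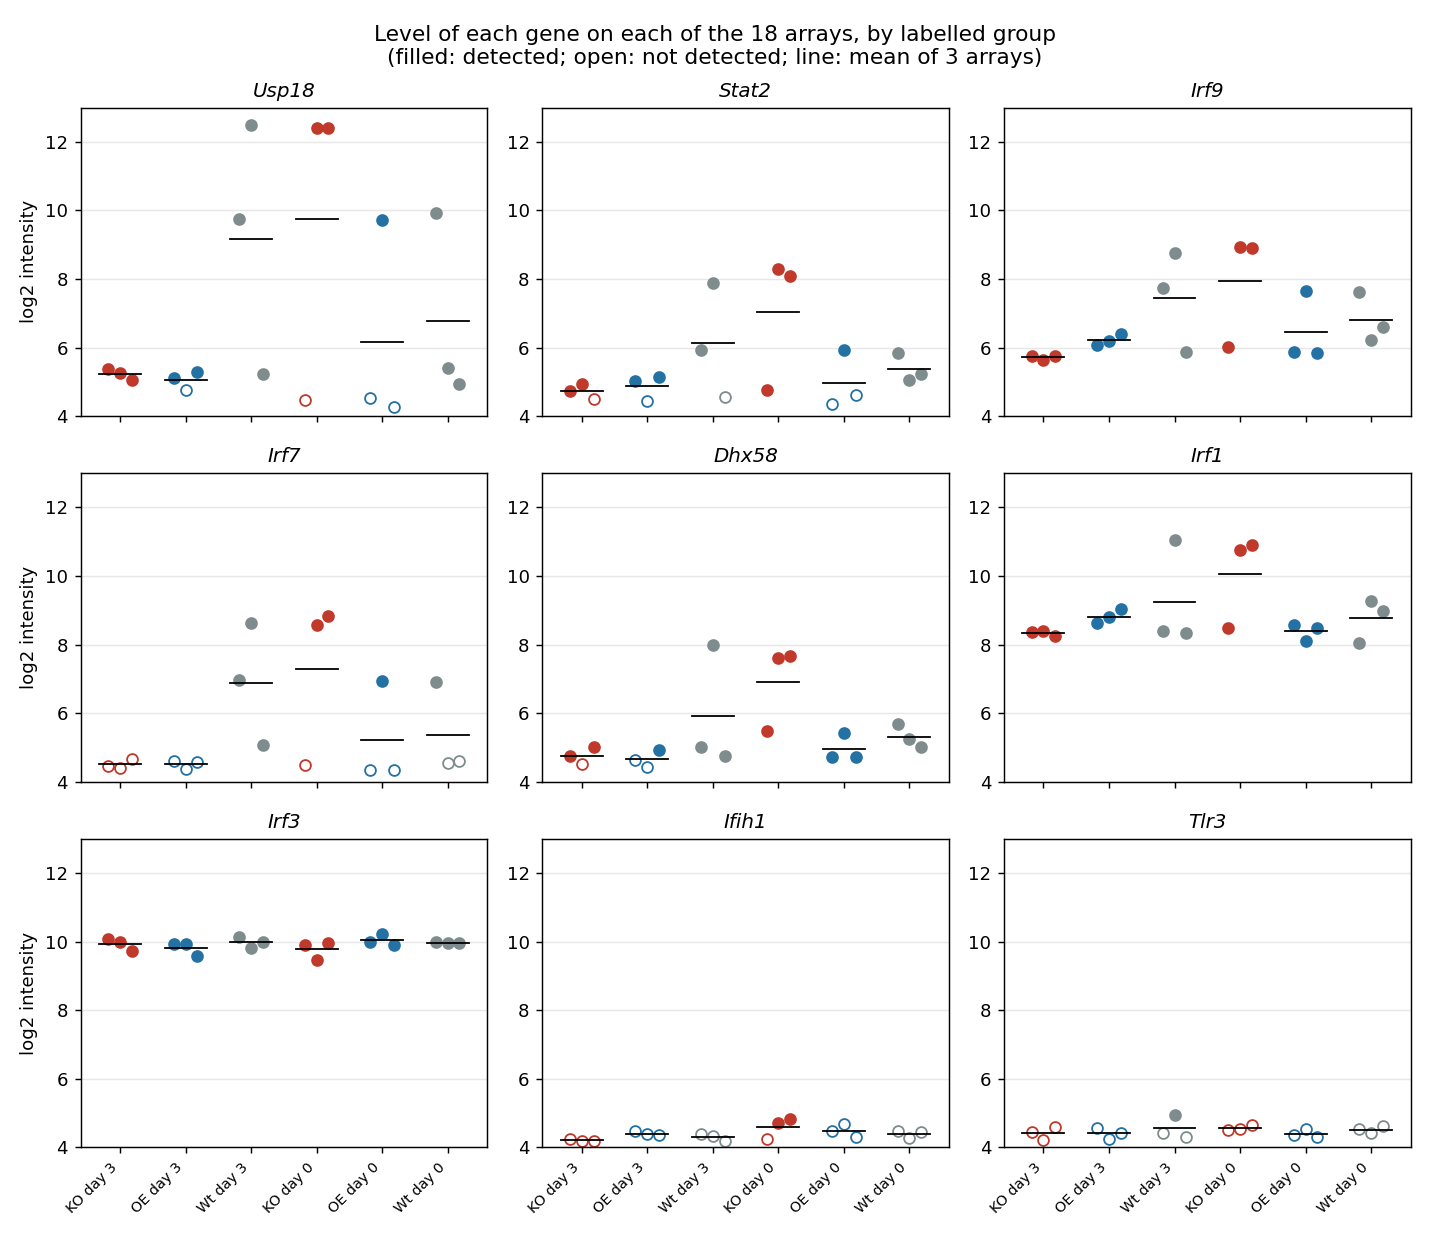
Log2 intensity of Usp18 and the 8 members on each of the 18 arrays by labelled group; filled points were detected, open points were not, and lines are means of 3 arrays. For Usp18, Stat2, Irf9 and Irf7 the arrays of KO day 0 and Wt day 3 lie far apart, as for Irf7 at 4.49, 8.57 and 8.83 in KO day 0.

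Dhx58, the LGP2 helicase, had 4 probes, of which 3 were kept and 1 was detected on no array. The representing probe (ILMN_2915689) was at 4.74, 4.52 and 5.02 in KO day 3, at 4.63, 4.42 and 4.92 in OE day 3 and at 5.02, 7.99 and 4.74 in Wt day 3. In day 0 cells it was at 5.48, 7.60 and 7.68 in KO, at 4.72, 5.41 and 4.71 in OE and at 5.68, 5.24 and 5.03 in Wt. All 3 arrays with the highest Usp18 were above 7.5, but the next 3, at 5.02 to 5.68, overlapped the 12 others, whose highest was KO day 0 replicate 1 at 5.48. The probes disagreed on this point, but narrowly and near background. ILMN_2646834 placed its next 3 arrays at 4.74 to 5.26 and met the rule only beyond 2 decimals, as OE day 3 replicate 3, below the gap, was also at 4.74. ILMN_1222039 placed 5 of the 6 arrays above the gap among its 6 highest.

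Irf1, the factor of the interferon-γ and inflammatory response, had 5 kept probes and was detected on all 18 arrays by the representing one (ILMN_2834777). It was at 8.38, 8.41 and 8.24 in KO day 3, at 8.62, 8.81 and 9.03 in OE day 3 and at 8.39, 11.04 and 8.34 in Wt day 3. Day 0 levels were 8.49, 10.76 and 10.90 in KO, 8.57, 8.11 and 8.48 in OE and 8.06, 9.28 and 8.97 in Wt. Irf1 was thus above 10 only on the 3 arrays with the highest Usp18. On the next 3 it was at 8.06 to 8.39, and 9 of the 12 arrays below the gap were higher than all 3 of these. Among those 12 arrays, the 6 with low Ckm had Irf1 at 8.48 to 9.28 and the 6 with high Ckm at 8.24 to 8.62. Of the 5 probes, 4 gave their 3 highest values on the same 3 arrays. The remaining probe, ILMN_2624100, was detected on 5 arrays and had a range of 1.05.

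Irf3, the factor activated by phosphorylation after RNA sensing, was detected on all arrays by each of its 3 probes. The representing probe (ILMN_2664319) was at 10.08, 9.99 and 9.73 in KO day 3, at 9.93, 9.93 and 9.59 in OE day 3 and at 10.14, 9.82 and 10.00 in Wt day 3. In the day 0 arrays it was at 9.90, 9.47 and 9.96 in KO, at 10.00, 10.22 and 9.89 in OE and at 9.98, 9.96 and 9.95 in Wt. On this probe the labelled groups overlapped in all 7 comparisons. On ILMN_1224505 all KO day 3 arrays (7.90, 7.95 and 8.01) lay above all KO day 0 arrays (7.55, 7.68 and 7.77). Over all genes, 9.38% had every KO day 3 array above every KO day 0 array. On ILMN_1229320 these groups overlapped, at 6.21 to 6.77 in KO day 3 and 6.52 to 6.71 in KO day 0. On the representing probe the 3 arrays with the highest Usp18 lay at 9.47 to 9.96. Except for KO day 0 replicate 2, they were inside the range of 9.59 to 10.08 of the 12 below the gap. The next 3 lay at 9.98 to 10.22, and on the other 2 Irf3 probes these 3 arrays were higher than all 12 below the gap, by small amounts (8.24 to 8.29 against at most 8.20, and 6.78 to 6.99 against at most 6.77).

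Ifih1, which encodes MDA5, had 1 probe (ILMN_2648913) with signals of 83.9 to 112.9 intensity units, and was detected on 2 arrays, KO day 0 replicates 2 and 3, at log2 levels of 4.70 and 4.82. Tlr3 had 1 probe (ILMN_2697002) with signals of 90.7 to 110.4, and was detected on Wt day 3 replicate 2 alone, at 4.94. The arrays on which these RNA sensors were detected were the 3 with the highest Usp18, each sensor on a part of them. Detection on so few arrays at this signal does not show that they follow Usp18. Ifih1 was not detected on Wt day 3 replicate 2 (4.34), which had the highest Usp18, and was at 4.67, not detected, on OE day 0 replicate 2. Tlr3 was lower on KO day 0 replicate 2 (4.53) than on Wt day 0 replicate 3 (4.62). At this signal no difference between groups could be seen for either gene, and a level below background is not an absence.

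**Figure D3:**
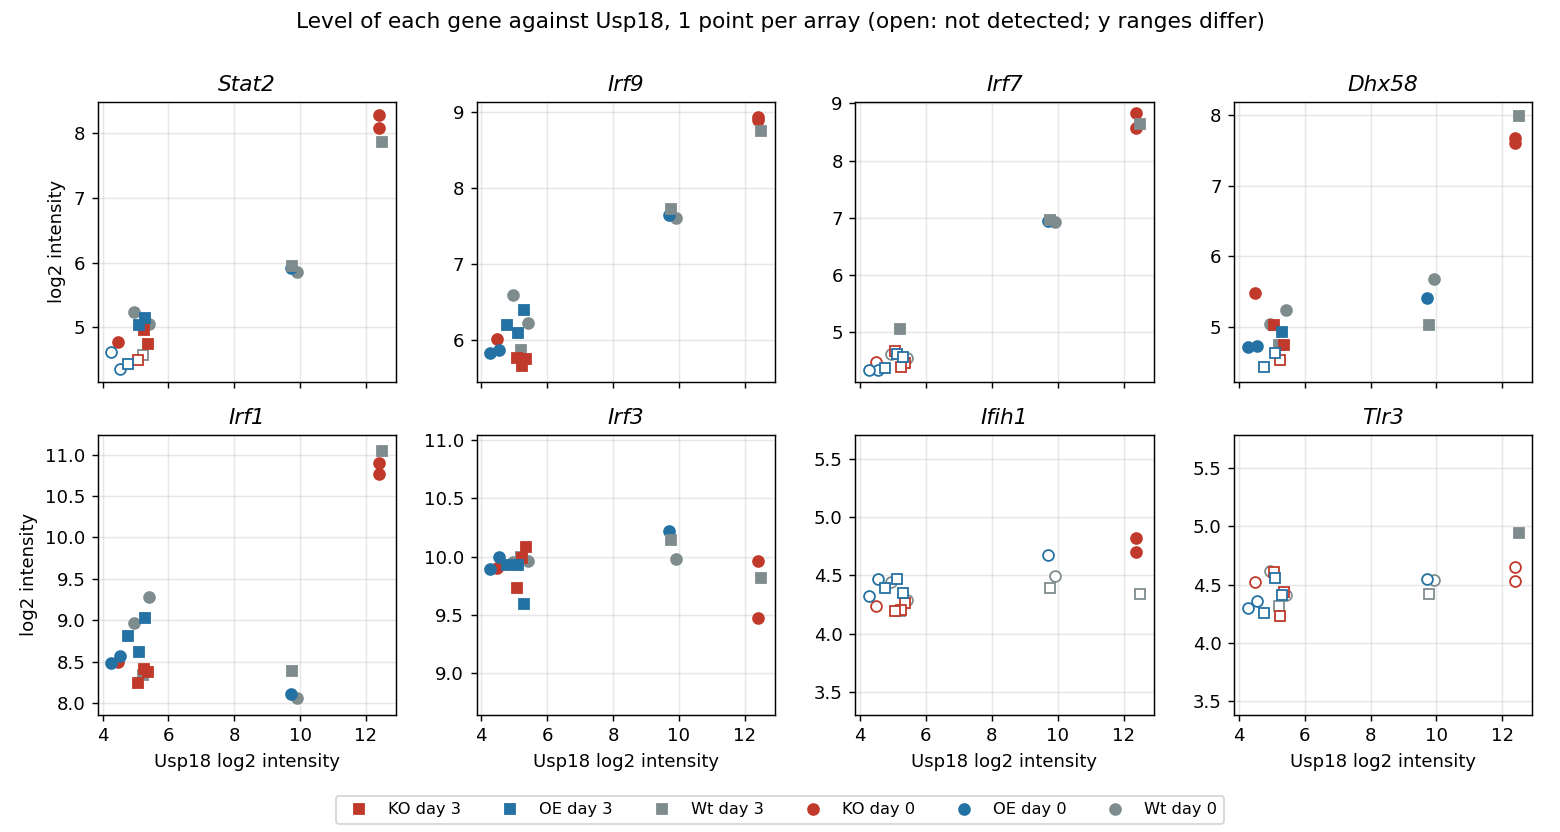
Log2 intensity of each member (y) against that of Usp18 (x), 1 point per array, with colour for the label, squares for day 3, circles for day 0 and open symbols where the member was not detected. Irf7 steps up from the array cloud at Usp18 below 5.5 to 6.92 and more near 9.8 and to 8.57 and more above 12, whereas Irf1 rises only above 12 and Irf3 has no step.

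The likeness of 2 profiles was measured by scaling each gene to 0 on its lowest and 1 on its highest array and averaging the absolute difference over the 18 arrays. Against Usp18 this difference was 0.054 for Irf7, 0.068 for Irf9, 0.096 for Stat2, 0.128 for Dhx58, 0.192 for Irf1 and 0.469 for Irf3. The same measure over 7452 other genes with a range of at least 1 had a median of 0.416. Irf3 thus lay beyond the median and the other 5 members below it. However, Irf3 had a range of 0.75 and would not itself enter that set, so the median is no like comparison for it. Among the members, Irf7 and Irf9 differed by 0.070, Stat2 and Irf9 by 0.074 and Stat2 and Dhx58 by 0.084, while Irf1 was nearest to Dhx58 at 0.118. The 18 arrays share their labels and culture differences across all genes, so the measure is a description.

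The 3 genes outside the list with the profile most like each member were then named. For Stat2 they were Ddx58, the RNA sensor RIG-I, at 0.037, Parp12 at 0.042 and the antiviral GTPase Mx2 at 0.063. Irf9 had Lgals3bp at 0.043, Gbp3 at 0.044 and Ifit3 at 0.049, and Irf7 had Usp18 at 0.054, Lgals3bp at 0.055 and Parp14 at 0.061. Dhx58 had Oas1g at 0.070 and Ddx24 and Ifnb1, the interferon-β gene, at 0.075 each. The nearest genes to Irf1 were Bbc3, which encodes the apoptosis protein PUMA, at 0.063, and Mitd1 and Spdya at 0.077 each. Irf3 had no near neighbour among genes with a range of at least 1, the closest being Kif3c at 0.120, Acad12 at 0.125 and Cr1l at 0.129.

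Within the 12 arrays below the gap Usp18 spanned 4.27 to 5.42 and was detected on 8, so that this range can show little. Of the members, Ifih1 and Tlr3 were detected on 0 of these arrays, Irf7 on 1 and Stat2 on 7, and the values of undetected arrays carry no order. Pearson's r with Usp18 was 0.48 (permutation p = 0.12) and Spearman's rho 0.45 (permutation p = 0.15) for Stat2, and r was between -0.04 and 0.23 for Irf1, Irf3, Irf9 and Dhx58. After adjustment over the 8 relations computed, no p was below 0.52 for r or 0.72 for rho. Without the 2 arrays farthest from the median of Usp18, r was 0.55 for Stat2. A correlation over all 18 arrays would restate the gap and is not given.

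KO against Wt at day 0 compares Cre recombinase with β-galactosidase in growth medium. The KO group was higher for 5 of the 6 members and lower for Irf3, with a median difference of 1.44 on the log2 scale, against -0.02 over all 11921 genes tested. Dhx58 averaged 6.92 ± 1.25 in KO and 5.32 ± 0.34 in Wt (SD, n = 3 each), a difference of 1.60 ± 0.69 (SE; limma adjusted p = 0.76). Stat2 averaged 7.05 ± 1.98 in KO and 5.38 ± 0.42 in Wt, with a difference of 1.67 ± 0.84 (limma adjusted p = 0.80). The difference was 1.94 ± 1.09 for Irf7, 1.28 ± 0.66 for Irf1, 1.15 ± 0.77 for Irf9 and -0.19 ± 0.17 for Irf3.
No member passed the adjusted threshold of 0.05 (background 0%), and Dhx58 was the 1 member with an unadjusted limma p below 0.05, against 6.38% of all genes. For each of the 6 members the KO and Wt arrays overlapped, where 4.57% of all genes had every KO array above every Wt array and 5.75% every one below. For all but Irf3, KO replicate 1 was lower than replicates 2 and 3. Without KO replicate 1 the differences were 2.81 for Stat2, 3.34 for Irf7, 2.12 for Irf9, 2.06 for Irf1 and 2.32 for Dhx58, and no member passed. Leaving out KO replicate 2 or 3 brought them to as little as 1.05 for Stat2, 1.17 for Irf7, 0.65 for Irf9, 0.86 for Irf1 and 1.22 for Dhx58. With arrays weighted by their closeness to their group, these 5 members passed, at limma adjusted p of 0.000632 (Dhx58) to 0.00461 (Irf1), as did 8.84% of all genes.

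At day 3 all 6 members were lower in KO than in Wt, with a median of -1.28 against -0.01 over all genes. Irf9 averaged 5.72 ± 0.06 in KO and 7.45 ± 1.46 in Wt (SD, n = 3 each), a difference of -1.73 ± 0.77 (SE; limma adjusted p = 0.94). Irf7 averaged 4.52 ± 0.14 in KO, where it was not well above background, and 6.89 ± 1.79 in Wt. Wt was at least 4.60-fold higher for Irf7, taking the lowest detected signal of each KO array or the probe's own signal, whichever was higher, as the bound (limma adjusted p = 0.94). On the representing probes both genes had KO arrays all below the Wt arrays, as had 4.19% of all genes, and both had an unadjusted limma p below 0.05, as had 2.26%. On the second Irf9 probe these groups overlapped. The other differences were -1.40 ± 0.84 for Stat2, -1.16 ± 0.69 for Dhx58, -0.91 ± 0.66 for Irf1 and -0.05 ± 0.17 for Irf3. No member passed after adjustment (background 0%).
The size of these differences depended on single Wt arrays. Without Wt replicate 2 they were -1.08 for Irf9, -0.53 for Stat2, -0.12 for Dhx58 and -0.02 for Irf1. Without Wt replicate 3 they were -2.52, -2.18, -1.75 and -1.37 for the same 4 genes. The bound for Irf7 was 2.51-fold without Wt replicate 2 and 8.66-fold without Wt replicate 3.

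The change between the days in the KO effect itself was -3.07 ± 1.19 for Stat2, -2.88 ± 1.10 for Irf9, -2.76 ± 0.98 for Dhx58 and -2.19 ± 0.93 for Irf1 on the log2 scale. Irf3 differed by 0.13 ± 0.24. Irf7, detected on no KO day 3 array, has no measured size here. These 4 genes and Irf7 had an unadjusted limma p below 0.05, against 3.59% of all genes, and none passed after adjustment (limma adjusted p = 1 for each, background 0%). With array weights 4 members passed, as did 1.12% of all genes.

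OE against Wt shares the Wt arrays with KO against Wt. At day 3 the OE group was lower for all 6 members, with a median of -1.24 against 0.01 over all genes. Irf7 averaged 4.52 ± 0.13 in OE and 6.89 ± 1.79 in Wt, so that Wt was at least 4.46-fold higher (limma adjusted p = 0.92). It was the 1 member whose OE arrays all lay below the Wt arrays, as for 2.41% of all genes (3.15% lay all above), and the 1 with an unadjusted limma p below 0.05, as for 3.93%. The difference was -1.23 ± 0.77 for Irf9, -1.26 ± 0.84 for Stat2, -1.26 ± 0.69 for Dhx58, -0.44 ± 0.66 for Irf1 and -0.17 ± 0.17 for Irf3. No member passed after adjustment (background 0%). Without Wt replicate 2 the bound for Irf7 was 2.44-fold, the differences became -0.58 for Irf9, -0.38 for Stat2 and -0.23 for Dhx58, and Irf1 was higher in OE by 0.45.
At day 0 the differences of OE from Wt on the representing probes were small beside their errors. They ran from -0.41 ± 0.84 for Stat2 to 0.08 ± 0.17 for Irf3. On every other kept Irf1 probe, all OE arrays lay below all Wt arrays, as for 6.12% of all genes. ILMN_2599782 gave 6.21 to 6.64 in OE against 6.80 to 7.37 in Wt. On ILMN_2624100 no OE array was detected. The differences on ILMN_2649067 (-0.583) and ILMN_2649068 (-0.565) were larger than their standard errors of 0.518 and 0.463. Irf7 averaged 5.21 ± 1.5 in OE and 5.36 ± 1.35 in Wt, each with 1 array near 6.9. No member had an unadjusted limma p below 0.05, where 5.13% of all genes had one, and none passed after adjustment (background 0%). Over the members, the change between the days in the OE effect ranged from -0.89 ± 0.98 for Dhx58 to -0.05 ± 0.93 for Irf1, with Irf7, not detected in OE day 3, left out. In that comparison 0 members had an unadjusted limma p below 0.05, where 6.2% of all genes had one (background after adjustment 0%).

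**Figure D4:**
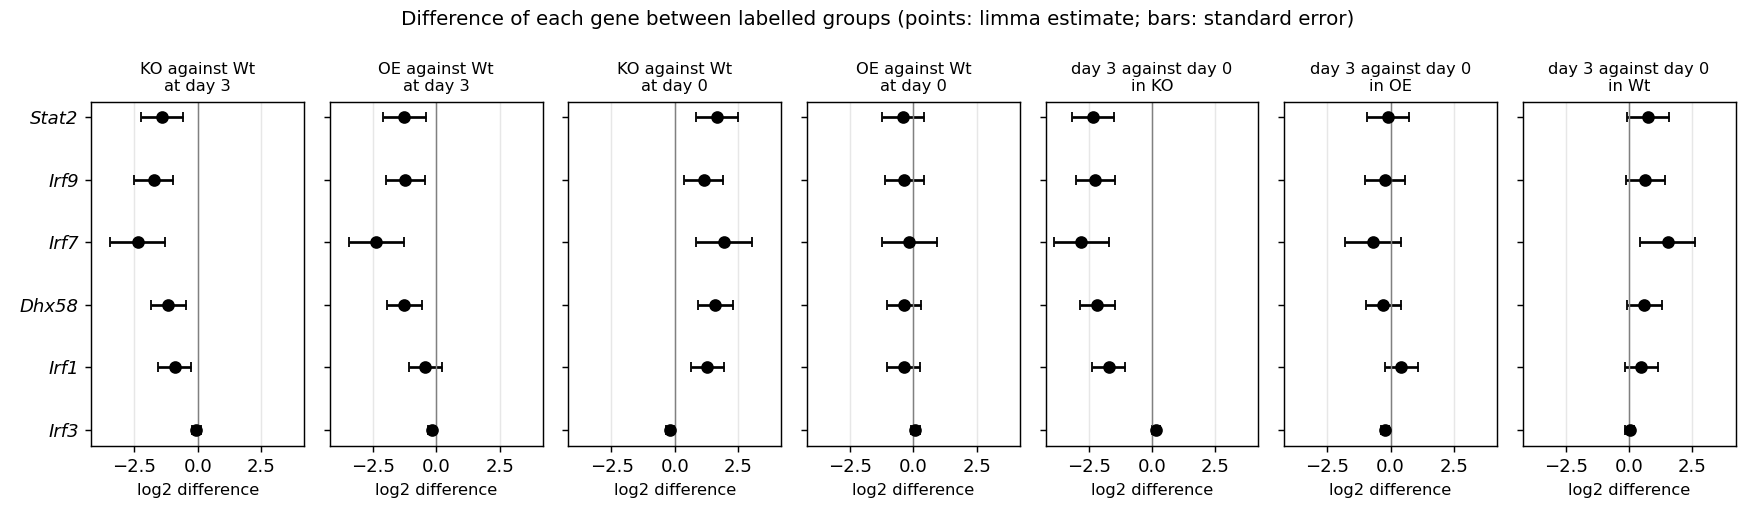
Log2 differences of the 6 kept members in the 7 comparisons of 2 labelled groups (points, limma estimates; bars, standard errors); Irf7 was detected on no day 3 array of KO or OE, so its points there are fitted values, not measured sizes. In KO against Wt, all 6 members lie below 0 at day 3 and 5 lie above 0 at day 0, and in none of the panels does a member pass the adjusted threshold.

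Day 3 was set against day 0 within each label. In KO, 5 of the 6 members were lower at day 3, with a median of -2.19 against -0.01 over all genes, and all 5 had an unadjusted limma p below 0.05, as had 8.31% of all genes. Stat2 averaged 4.73 ± 0.23 at day 3 and 7.05 ± 1.98 at day 0 (SD, n = 3 each), a difference of -2.32 ± 0.84 (SE; limma adjusted p = 0.49). Dhx58 averaged 4.76 ± 0.25 at day 3 and 6.92 ± 1.25 at day 0, a difference of -2.16 ± 0.69 (limma adjusted p = 0.49). Irf9 differed by -2.23 ± 0.77 and Irf1 by -1.71 ± 0.66, and Irf7 was at least 6.11-fold higher at day 0, where 2 of 3 arrays measured it. On the representing probes, the day 3 arrays of Irf1, Irf9 and Dhx58 all lay below those of day 0, as for 7.8% of all genes (9.38% lay all above). On the other kept probes of these genes the days overlapped, except on ILMN_2649067 of Irf1. No member passed after adjustment (limma adjusted p = 0.49 for each of the 5, background 0%). With array weights these 5 passed, at a limma adjusted p of 4.19e-05 each, as did 52.6% of all genes. Leaving out KO day 0 replicate 1, 2 or 3 in turn moved the differences to between -3.46 and -1.70 for Stat2, -3.20 and -1.73 for Irf9, -2.48 and -1.28 for Irf1 and -2.88 and -1.78 for Dhx58, the largest without replicate 1. For Irf7 the bound was 16.2-fold without replicate 1, 3.93-fold without replicate 2 and 3.59-fold without replicate 3.
In Wt, all 6 members were higher at day 3, with a median of 0.62 against -0.01 over all genes, from 0.02 ± 0.17 for Irf3 to 1.52 ± 1.09 for Irf7. No member had an unadjusted limma p below 0.05 (3.97% of all genes had one), and no member's day 3 arrays lay all above its day 0 arrays, as for 2.97% of all genes. Without Wt day 3 replicate 2 the difference was -0.12 for Stat2, -0.43 for Dhx58, -0.41 for Irf1, -0.01 for Irf9 and 0.65 for Irf7, so that 4 of these 5 turned direction.
In OE the median was -0.22 against 0.02 over all genes. The OE day 3 arrays of Irf1 (8.82 ± 0.20) all lay above those of day 0 (8.39 ± 0.24), as for 6.02% of all genes, with a difference of 0.43 ± 0.66. Of these arrays, OE day 3 replicates 2 and 3 had low Ckm (6.87 and 7.39) and OE day 0 replicate 2 had high Ckm (11.19). The part of this in the difference was not tested. Irf7 was at least 1.39-fold higher at day 0, where 1 of 3 arrays measured it. Without that array, OE day 0 replicate 2, Irf7 was detected in neither group and the order is lost. No member had an unadjusted limma p below 0.05, where 4.55% of all genes had one. The counts past the adjusted threshold were 0 members in Wt and in OE (background 0% in each).

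The other STATs, IRFs and receptor components gave 15 kept genes of 20 with a probe, and by the same rule 0 of them followed Usp18 (0.411% of all genes). The kinase Jak2 was at 8.39 to 8.65 on the 3 arrays with the highest Usp18, at 6.77 to 6.89 on the next 3 and at 6.98 to 8.30 on the 12 others. Stat5a was lowest on the 3 highest arrays (5.16 to 5.84), at 7.45 to 7.80 on the next 3 and at 5.97 to 7.55 on the 12 others. Stat3 was at 7.97 to 8.37 and at 8.81 to 9.79 on the first 2 of these sets. Both lay inside its range of 7.61 to 9.97 on the 12 others. Irf5 and Irf2, chosen after their values were seen, were highest on the 3 arrays above 12, Irf5 at 5.49 to 5.79 against at most 4.79 on all others and Irf2 at 10.30 to 10.40 against at most 10.15. The receptor chain Ifnar1 was detected on no array, and Ifnar2 lay between 4.87 and 6.08.

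Among 13 kept sensors and adaptors, 3 followed Usp18 (0.411% of all genes). Ddx58, which encodes the RNA sensor RIG-I, was at 7.21 to 7.63 on the 3 arrays with the highest Usp18, at 5.54 to 5.84 on the next 3 and at most at 5.18 below the gap. Eif2ak2, which encodes the RNA-activated kinase PKR, was at 10.61 to 10.90, at 9.30 to 9.37 and at most at 8.73, and Trim25, the ubiquitin ligase that acts on RIG-I, was at 10.11 to 10.36, at 8.99 to 9.45 and at most at 8.96. Cgas, the DNA sensor, was at 8.97 to 9.42 on the 3 highest arrays, at 5.91 to 6.32 on the next 3 and at 6.12 to 8.22 below the gap, so that the next 3 did not stand out. Adar, the RNA deaminase, was at 7.70 to 8.16, at 5.90 to 6.26 and at 4.88 to 6.85. Of the adaptors and kinases, Myd88 was at 9.87 to 10.24 on the 3 highest arrays, at 8.87 to 9.09 on the next 3 and at most at 9.64 below the gap. Mavs stayed within 0.61 and Tbk1, the kinase of IRF3, within 0.70 over all arrays.

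Of 12 kept ISGF3 target genes, 5 followed Usp18, itself included (0.411% of all genes met the rule). Isg15 was at 12.67 to 12.81 on the 3 highest arrays, at 10.70 to 11.13 on the next 3 and at 6.06 to 9.14 on the rest, and Ifit3 was at 11.76 to 12.04, at 9.07 to 9.23 and at 4.83 to 7.34. Mx1 and Rtp4 were each detected on 3 arrays. Of 4 kept interferon ligands, Ifnb1 was detected on 3 arrays, which were the 3 with the highest Usp18, at 4.90 to 5.50, and was at most at 4.58 elsewhere. Ifna1 and Ifnab followed no such order (4.69 to 6.03 and 6.02 to 7.16), and levels of these near-identical genes are uncertain, since a probe may bind several of the family. No gene of these 4 lists passed the adjusted threshold in any of the 9 comparisons. In KO against Wt, the median difference of the ISGF3 targets was -2.20 at day 3 and 1.46 at day 0. These sizes depended on single arrays. The array means of the targets, Usp18 included, were 5.56, 5.50 and 5.53 in KO day 3 and 7.57, 9.98 and 5.53 in Wt day 3. At day 0 they were 5.50, 10.08 and 10.13 in KO and 7.51, 6.57 and 6.51 in Wt. The median difference of the sensors and adaptors was -0.40 at day 3 and 0.47 at day 0. That of the other STATs, IRFs and receptor components was -0.06 at day 3 and 0.12 at day 0.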

How the data were processed

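Total RNA from 18 samples of cultured myoblasts was measured on Illumina MouseWG-6 bead arrays. The deposited non-normalised table gives, per the file headers, an intensity on a linear scale and a detection p-value for every probe on every array. The authors also deposited a table of processed intensities whose column medians were 105.1 to 110.7. The scanner software and the normalisation of that table are not given in the sources used here. Groups and replicate numbers came from the sample titles.

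Intensities were corrected by limma 3.58.1 (R 4.3.3) with a normexp fit that takes its parameters from the detection p-values, with offset 16, and were quantile normalised and put on a log2 scale. Probes detected (p-value below 0.05) on 3 or more arrays were kept, 22365 of 45281. Symbols were updated through Entrez identifiers against the RefSeq table of GRCm38.p6; 34885 probes had 1 symbol, 18 several and 10378 none. Each of 11921 genes was represented by its kept probe of highest mean. A linear model with 6 group means (12 residual degrees of freedom) was tested with limma, with Benjamini-Hochberg adjustment over all genes in each of 9 comparisons, and was checked on simulated data. The number of arrays limits the precision.

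The members and the gene lists were chosen with earlier results of these data known. Named are the members, Usp18, the 3 nearest profiles of each among genes with a range of at least 1, and in each list the up to 3 genes with the largest range, with exceptions: Gata4 as the targeted gene, the lists' genes that follow Usp18 and marker genes given for context, and Irf2, Irf5, Ifnar1, Ifnar2, Mavs, Myd88, Tbk1, Mx1 and Rtp4, named after their values were seen.

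Equal replicate numbers deviated together in KO and Wt at day 0, with correlations of 0.61, 0.368 and 0.519 between same-numbered arrays. The p-values above come from a fit without pairing, and a fit with the number as a block was added there. The pairing comes from the data, as the labels do not say what a number marks. In these groups replicate 1 of KO and Wt had Ckm at 11.24 and 11.1, and replicates 2 and 3 had it at 7.1 to 8.04. With the number as a block within these 6 arrays 0 genes passed, and the lowest adjusted p of a member was 0.41 (Irf1). In the other comparisons not every pair exceeded 0.1 (range of all 21 pairs -0.73 to 0.694).

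Alternatives were other background corrections, normalisations, filters and probe choices, the processed table, array weights, the replicate block, a fit of only the 2 groups compared and leaving out each array. The direction of a member difference was taken as reversed only where the difference exceeded its standard error.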

Additional observations from a re-analysis of the deposited data

How the results depend on the processing

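No member and no gene passed the threshold in any of the 9 comparisons, and this held under every alternative except array weights and leaving out 1 array. With array weights, 1054 genes and 5 members passed in KO against Wt at day 0, 962 genes in OE against Wt at day 0, 657 genes in day 3 against day 0 in Wt, 6269 genes and 5 members in day 3 against day 0 in KO, and 133 genes and 4 members in the change of the KO effect between days. These weights favour arrays close to the others of their label, so such p-values may be too small. Leaving out each of the 18 arrays gave 0 to 10 genes in KO against Wt at day 0, the 10 without KO day 0 replicate 1, and 0 in the other comparisons, with 0 members throughout. The replicate block, in all 18 arrays, left 0 genes past the threshold in each comparison. Of the alternatives for single members in the 7 comparisons of 2 groups, 10 gained the threshold, all with array weights. In these comparisons no alternative reversed a difference larger than its standard error. Stat2, Irf7 and Irf9 were the members that followed Usp18 under each alternative tried for that rule. Irf7, Ifih1 and Tlr3 were at or near background on most arrays, which limits what their differences show.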
